A study of Mus musculus with 125 samples.

Results

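The 10 genes described here encode enzymes of glycolysis and lactate formation: the hexokinases Hk1 and Hk2, the phosphofructokinases Pfkl and Pfkp, the regulator Pfkfb3, the aldolase Aldoa, the phosphoglycerate kinase Pgk1, the pyruvate kinase Pkm and the lactate dehydrogenases Ldha and Ldhb. They were chosen by symbol from the 27998 genes of the single-cell tables, with earlier results of these data known, and were followed in brain endothelium from the embryo to the adult. Endothelial barcodes were those with at least 200 detected genes, at most 10% of UMIs (unique molecular identifiers, 1 per captured RNA molecule) from mitochondrial genes, and at least 3 of Cdh5, Pecam1, Egfl7, Esam, Tie1 and Kdr detected. This gate held 5644 of 17176 deposited barcodes at E9.5, 6347 of 8310 at E12.5, 3786 of 3997 at E16.5, 4778 of 7305 at P8 and 3154 of 5552 in the adult.

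The study profiled mouse endothelium across organs and ages. Each of the 5 ages gave 1 single-cell library of cells selected for CD31, the Pecam1 protein: whole brain for the 3 embryonic ages, dissociated with collagenase (1 mg/ml for 15 min), and cortex at P8 and at 2 months, dissociated with a neural tissue kit. The labels give these mice no strain, genotype or treatment. The library labelled E16.5 is called that here, although the name of its deposited file gives a later embryonic day, so the age in every comparison with it rests on the label. Chromatin accessibility (ATAC-seq, which maps DNA open to a transposase) was measured in nuclei of endothelial cells, 37 libraries, and of whole tissue, 29 input libraries, from brain, heart, trunk, kidney, liver, lung and retina. All mice used for ATAC-seq received tamoxifen (0.015 mg/kg, given to the dam for embryos) and carried a GFP reporter in their vessels, whose driver the labels do not name. The embryonic group is labelled E12 (collected at E12.5), the neonatal group P6 (collected at P7 in the protocol) and the adult group was 2 months old.

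Glycolysis splits glucose into pyruvate in the cytosol and yields ATP without oxygen. Hexokinase traps glucose, phosphofructokinase is the main control point and is activated by the product of Pfkfb3, and lactate dehydrogenase converts pyruvate to lactate with recovery of NAD+. Endothelial cells are known to draw most of their ATP from this pathway, and Pfkfb3 is known for its part in vessel sprouting.

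With 1 library per age there is no replicate check and no p-value on any RNA comparison: intervals are exact 95% intervals for counting error only. Age, tissue dissected, dissociation and the level of Xist (below) change together between embryo and P8 and cannot be told apart. The libraries also fell into 2 sets by their barcodes: E12.5 and E16.5 shared 50 barcodes, E9.5, P8 and adult shared 8 to 31 with each other, and pairs across the sets shared 0 to 3. E12.5 against E9.5 and every comparison of P8 or adult with E12.5 or E16.5 cross the 2 sets, and there set and age cannot be told apart. Endothelial markers outside the gate (Cldn5, Flt1, Tek, Erg, Emcn, Sox18, Ecscr and Cd34) were all detected at every age, at a summed 2196 to 10670 CPM (UMIs scaled to the total of the same barcodes) against 231 to 753 CPM in barcodes with none of the 6 gate genes, called other barcodes below. Summed over 10 dissociation and stress genes, the endothelial level was 458, 1064, 4221, 3887 and 5450 CPM in age order. Erythroid genes, all 7 detected in the embryonic and P8 libraries and 5 in the adult, summed to 3131, 14908, 11121, 16087 and 8377 CPM in endothelial barcodes, and 6 mural genes to 56.8, 60.4, 124.6, 487 and 1131. Xist, transcribed from the inactive X chromosome of females, was at 180 to 1150 CPM in the embryonic libraries and at 0.0827 and 0.0860 CPM at P8 and in the adult. The median endothelial barcode held 7158.5, 10469, 9017, 8468 and 4896 UMIs from E9.5 to adult.

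The promoter sequences of Ldha, Pkm, Hk2 and Pfkp are printed because these genes carry the main contrasts in the RNA data and each start below lay within 500 bp of an ATAC-seq peak in 36 or 37 of the 37 endothelial libraries. Each run is the 250 bases before the RefSeq start (GRCm38.p6, the build of the peak lists), 5′ to 3′ on the gene's strand, with ACGTG and GCGTG, the core letters of the hypoxia response element, in capitals on either strand. On the reverse strand these cores read CACGT and CACGC, and ACGTG overlaps itself across the strands where CACGTG occurs.
Ldha, chr7:46845554-46845803, plus strand: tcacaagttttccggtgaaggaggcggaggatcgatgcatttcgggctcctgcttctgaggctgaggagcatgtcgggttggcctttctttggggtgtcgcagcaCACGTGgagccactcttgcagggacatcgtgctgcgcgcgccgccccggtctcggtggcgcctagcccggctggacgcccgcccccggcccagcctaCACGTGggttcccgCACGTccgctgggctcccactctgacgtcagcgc
Pkm, chr9:59656326-59656575, plus strand: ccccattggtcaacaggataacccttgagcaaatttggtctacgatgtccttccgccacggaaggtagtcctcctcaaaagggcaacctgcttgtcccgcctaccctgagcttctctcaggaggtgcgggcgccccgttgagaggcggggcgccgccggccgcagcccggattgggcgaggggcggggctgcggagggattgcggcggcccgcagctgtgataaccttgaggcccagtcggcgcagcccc
Hk2, chr6:82774455-82774704, minus strand: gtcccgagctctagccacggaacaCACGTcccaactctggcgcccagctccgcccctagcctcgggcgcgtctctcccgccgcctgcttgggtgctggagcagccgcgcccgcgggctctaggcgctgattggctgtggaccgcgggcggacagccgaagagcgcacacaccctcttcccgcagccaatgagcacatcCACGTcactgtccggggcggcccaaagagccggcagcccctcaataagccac
Pfkp, chr13:6648772-6649021, minus strand: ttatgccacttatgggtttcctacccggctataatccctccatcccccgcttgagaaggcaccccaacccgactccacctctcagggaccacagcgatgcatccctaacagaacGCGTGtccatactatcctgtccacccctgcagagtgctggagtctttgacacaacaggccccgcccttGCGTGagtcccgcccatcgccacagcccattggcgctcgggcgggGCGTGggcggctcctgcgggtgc
The Ldha promoter held 5 core matches, which form 3 places because 2 are CACGTG palindromes read on both strands. The Pkm promoter held 0, Hk2 held 2 and Pfkp held 3. At least 1 core was found in 13 of the 16 member promoters in RefSeq and in at least 1 promoter of all 10 members. Among 21263 promoters of protein-coding genes, 44.0% held a core in the same 250 bases, 17.8% held ACGTG, 33.8% GCGTG and 6.63% CACGTG. The letters TATAAA were in 0 of the 16 member promoters and in 11.6% of all promoters. A match is a description of the letters, and binding was not measured. The 4 printed promoters had 62.8 to 69.6% G or C against a median of 55.6% over all promoters.

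Hexokinase is the entry step, and its 2 genes differed in course: Hk2 was far lower at E12.5 than at E9.5, where Hk1 was level. Hk2, the hexokinase known for insulin-responsive and fast-growing tissues, stood at 27.7 CPM (26.1 to 29.2) at E9.5, 1.85 (1.57 to 2.18) at E12.5, 0.235 (0.113 to 0.433) at E16.5, 0.0662 (0.0180 to 0.169) at P8 and 0.516 (0.267 to 0.902) in the adult. The last 3 levels rest on 10, 4 and 12 UMIs, so Hk2 was abundant in the E9.5 library and close to the limit of detection from E16.5 on. The E9.5 level was 14.9-fold that of E12.5 (12.6 to 17.8), between libraries of different barcode sets. Other barcodes of the same libraries held Hk2 at 45.9, 28.5, 14.2, 17.9 and 76.0 CPM in age order, which was 1.66-fold the endothelial level at E9.5 (1.40 to 1.97) and 15.4-fold at E12.5 (11.9 to 19.8). Free RNA can carry UMIs into any droplet, and erythroid genes, which endothelial cells are not known to express, give a measure of it for themselves only. The endothelial level of Hk2 was 60.2% (50.9 to 71.7%) of that in other barcodes at E9.5, where the erythroid sum was 11.5%, and 6.5% (5.05 to 8.4%) at E12.5, where the erythroid sum was 7.14%. From E16.5 on Hk2 was at 1.66% (0.478 to 7.24%), 0.371% (0.0795 to 1.46%) and 0.679% (0.327 to 1.31%). The erythroid sum was at 7.7%, 40.7% and 54.1%. In other barcodes Hk2 rested on 4, 7 and 44 UMIs at these ages. The erythroid share was thus far above that of Hk2 at P8 and in the adult, and just above the Hk2 interval at E16.5. It is no rate of carry-over for Hk2. The source of the Hk2 UMIs was not tested at any age, and those from E12.5 on are not read as endothelial expression. Leaving out barcodes with at least 2 markers of another cell type (erythroid list not used) left Hk2 at 25.7 CPM at E9.5 and 0.788 CPM at E12.5.

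Hk1, the widely expressed hexokinase that docks on mitochondria, was at 30.0 CPM (28.4 to 31.6) at E9.5, 28.8 (27.7 to 30.0) at E12.5, 43.6 (41.6 to 45.6) at E16.5, 33.7 (32.3 to 35.2) at P8 and 59.7 (56.6 to 62.9) in the adult. The adult library was the highest and E9.5 and E12.5 overlapped within counting error. The adult level was 2.07-fold that of E12.5 (1.93 to 2.21), at the edge of the 2-fold call. The call held in 7 of 15 alternative settings, and the log2 fold change ranged from 0.62, without barcodes carrying markers of another type, to 1.05. Hk2 made up 48.0% of hexokinase UMIs (Hk1 plus Hk2) at E9.5 (46.0 to 49.9%), 6.04% at E12.5 (5.13 to 7.05%) and 0.196 to 0.858% later. In other barcodes that share stayed between 36.4% and 67.9%, on 11 to 227 UMIs per library.

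Phosphofructokinase commits sugar to glycolysis. Pfkl, the liver-type subunit, was at 164 CPM (161 to 168), 89.3 (87.3 to 91.4), 176 (172 to 180), 85.3 (83.0 to 87.6) and 93.3 (89.4 to 97.3) in age order. E9.5 and E16.5 were thus high and the other 3 ages low. P8 was 2.07-fold below E16.5 (1.99 to 2.14), again at the edge of the call. Pfkp, the platelet-type subunit, was at 22.9 CPM (21.6 to 24.4) at E9.5, 43.2 (41.7 to 44.6) at E12.5, 54.0 (51.8 to 56.2) at E16.5, 76.1 (73.9 to 78.3) at P8 and 18.6 (16.9 to 20.5) in the adult. Its level was higher at each age up to P8 and lowest in the adult, 4.09-fold below P8 (3.70 to 4.52). No other member had its highest level at P8. Pfkp made up 11.9%, 30.8%, 22.2%, 44.1% and 15.2% of the UMIs of Pfkl, Pfkm and Pfkp in age order, with Pfkm, the muscle-type subunit, at 3.18 to 8.48%. Capture can differ between genes, so these shares compare ages and not absolute amounts of subunits.

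Pfkfb3, whose enzyme makes the fructose bisphosphate that activates phosphofructokinase, was low and nearly level. It stood at 9.75 CPM (8.87 to 10.7), 11.7 (11 to 12.5), 8.07 (7.24 to 8.97), 11.5 (10.7 to 12.4) and 14.1 (12.6 to 15.7) in age order. Adult was the highest and E16.5 the lowest. No comparison of ages reached 2-fold, and the adult was 1.2-fold E12.5 (1.06 to 1.37). Other Pfkfb genes stayed under 6 CPM: Pfkfb1 was at 0.301 to 5.62, Pfkfb2 at 0.393 to 1.97 and Pfkfb4 at 0.734 to 2.58 CPM.

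Aldoa, the aldolase that splits the 6-carbon sugar, was at 1207 CPM (1197 to 1217) at E9.5, 530 (525 to 535) at E12.5, 763 (755 to 771) at E16.5, 192 (189 to 196) at P8 and 326 (319 to 333) in the adult. The P8 library was the lowest, 3.97-fold below E16.5 (3.89 to 4.06) and 2.76-fold below E12.5 (2.70 to 2.82). The adult library was 1.70-fold above P8 (1.65 to 1.75). Pgk1, which makes the first ATP of the pathway, was at 22.2 CPM (20.8 to 23.6), 9.07 (8.42 to 9.75), 15.6 (14.4 to 16.8), 6.48 (5.86 to 7.16) and 6.45 (5.46 to 7.57) in age order. Its P8 and adult levels overlapped, and E9.5 was 2.45-fold above E12.5 (2.22 to 2.69). The near-identical copy Pgk1-rs7 was listed at 0.688 to 4.5 CPM, highest at P8, so reads of Pgk1 may have been split between them and its levels are uncertain.

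Pkm, the pyruvate kinase whose M2 form is typical of growing cells, was at 1795 CPM (1783 to 1808) at E9.5, 1078 (1070 to 1085) at E12.5, 1665 (1653 to 1677) at E16.5, 575 (569 to 581) at P8 and 362 (354 to 369) in the adult. The M1 and M2 forms share the 3′ end that these libraries read and were not told apart. Ldha, the subunit that favours lactate formation, was at 1420 CPM (1409 to 1430), 832 (825 to 838), 1637 (1625 to 1650), 477 (472 to 483) and 316 (309 to 323) in the same order. Both genes were high at E9.5 and E16.5, lower at E12.5, and lower again at P8 and in the adult. The drop between E16.5 and P8 was 2.90-fold for Pkm (2.86 to 2.93) and 3.43-fold for Ldha (3.38 to 3.48). In other barcodes Pkm and Ldha were lower at each later age: Pkm was at 1796, 766, 646, 408 and 281 CPM and Ldha at 1280, 942, 565, 263 and 150. Aldoa there was at 1064, 667, 572, 329 and 404, lowest at P8. The endothelial level stood furthest above other barcodes at E16.5, 2.58-fold for Pkm (2.227 to 2.995) and 2.90-fold for Ldha (2.482 to 3.409). The Ldha interval overlapped that of the adult library, at 2.103-fold (1.702 to 2.629). Other barcodes numbered 1118, 554, 51, 130 and 176 in age order, so the levels there from E16.5 on rest on few barcodes. At E16.5 they held 144432 CPM of erythroid and 3314 CPM of microglia and macrophage genes. The part of this mixture in the ratios was not tested. From E12.5 to adult the endothelial difference was 2.98-fold for Pkm (2.91 to 3.05) and 2.63-fold for Ldha (2.57 to 2.70).

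Ldhb, the subunit typical of lactate-consuming tissue such as heart, was at 23.6 CPM (22.2 to 25.1) at E9.5, 41.0 (39.6 to 42.4) at E12.5, 22.5 (21.1 to 24.0) at E16.5, 20.5 (19.4 to 21.7) at P8 and 19.6 (17.8 to 21.5) in the adult. E12.5 stood above the other 4 ages, which lay between 19.6 and 23.6 CPM. P8 was at 0.912 of E16.5 (0.838 to 0.994) and the adult at 0.953 of P8 (0.854 to 1.06). Its share of lactate dehydrogenase UMIs (Ldha plus Ldhb) was 1.64%, 4.70%, 1.36%, 4.12% and 5.83% in age order. In other barcodes the same share was 8.32%, 6.44%, 28.1%, 58.6% and 51.1%, and Ldhb itself was at 116, 64.8, 220, 372 and 157 CPM. The endothelial share thus stayed under 6% while the share in other barcodes, a mixture that changes with age, exceeded 50% at P8 and in the adult. Without barcodes carrying at least 2 markers of another type (erythroid list not used), endothelial Ldhb was at 37.3 CPM at E12.5, 14.5 at P8 and 8.91 in the adult, the last against 19.6 CPM with those barcodes kept.

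**Figure D1:**
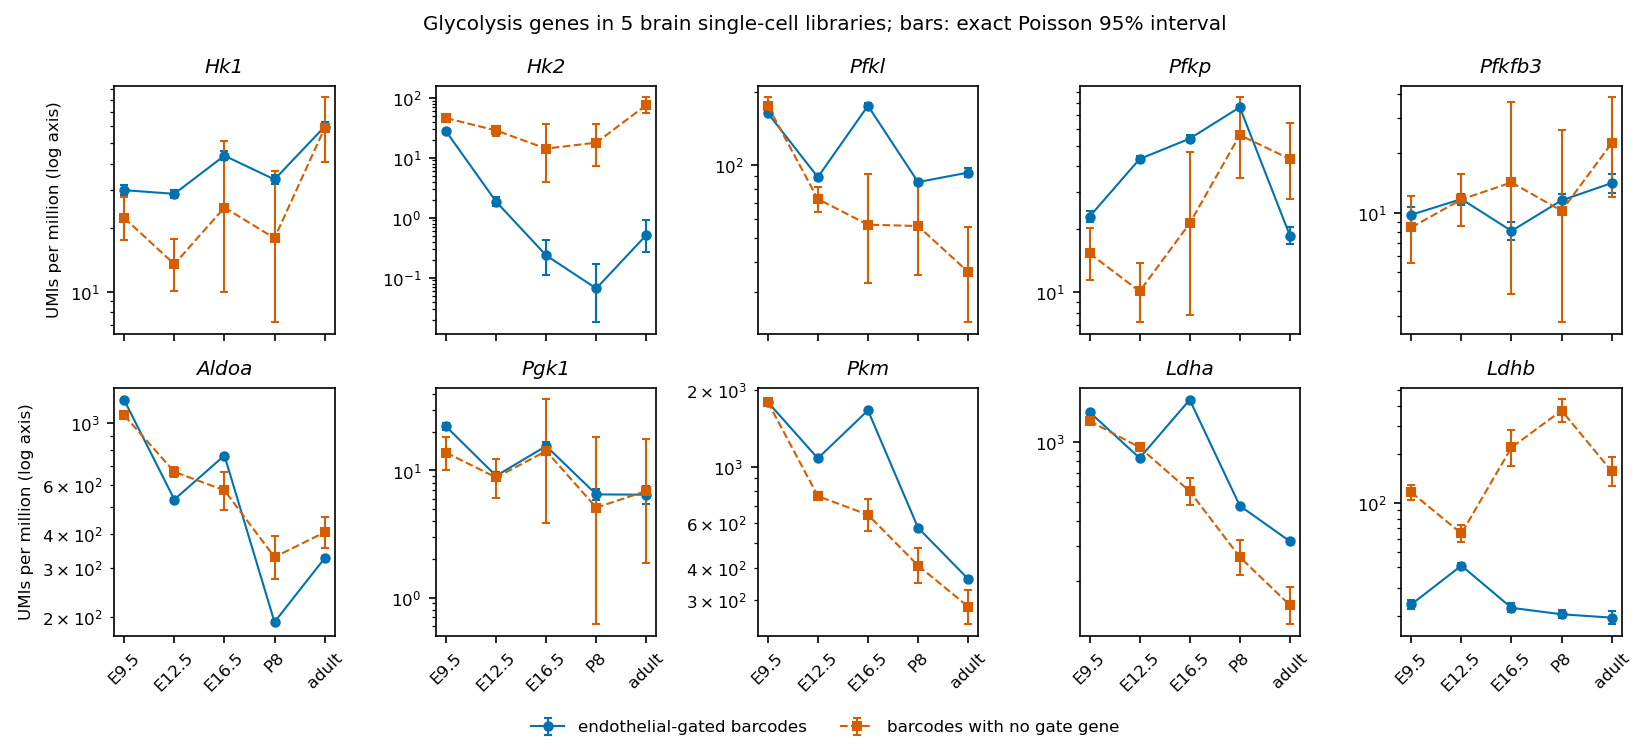
Level of each member (CPM, log axis) in endothelial barcodes of the 5 single-cell libraries, with 95% Poisson intervals, and in other barcodes of the same libraries. Each panel has its own axis. Pkm and Ldha are lowest in the adult, endothelial Pfkp peaks at P8 with 76.1 CPM, and endothelial Hk2 lies below the other barcodes at all 5 ages.

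**Figure D2:**
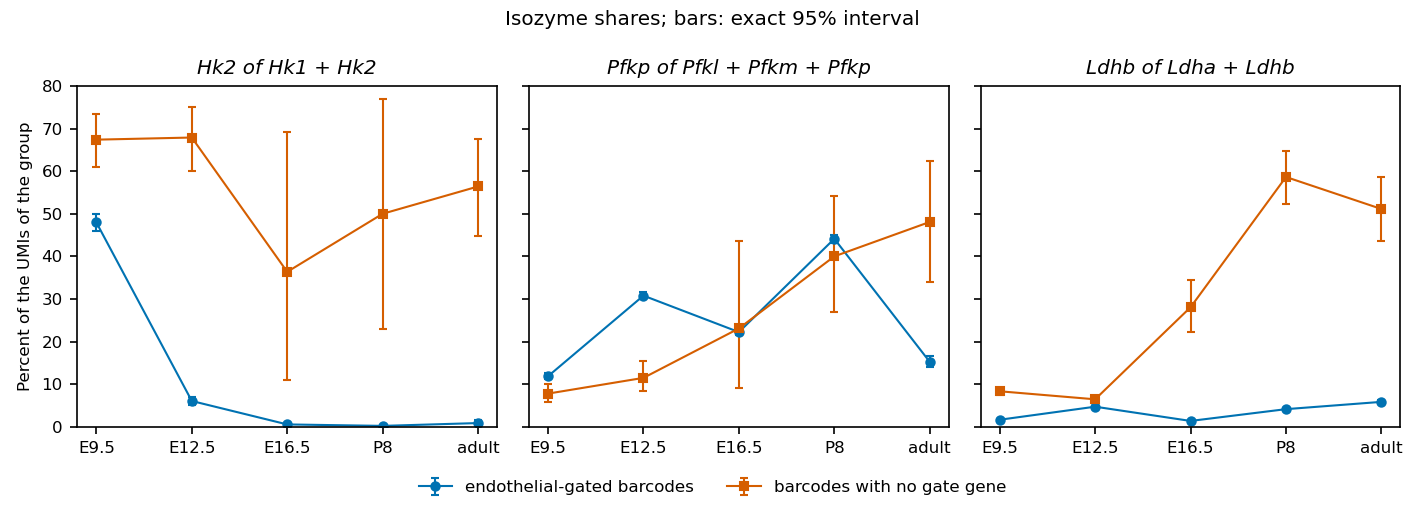
Share of UMIs (percent) of Hk2 among hexokinases, Pfkp among phosphofructokinases and Ldhb among lactate dehydrogenases at each age, with 95% Clopper-Pearson intervals. The endothelial Hk2 share drops from 48.0% to 6.04% between E9.5 and E12.5, while the endothelial Ldhb share stays between 1.36% and 5.83%.

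The steps between ages were then read over all members, beside the same count over all genes. A gene was counted in a comparison when its mean over both libraries was at least 10 CPM, and called when it differed at least 2-fold in CPM + 1. At P8 against E16.5, 5 of the 8 counted members were called lower (Aldoa, Ldha, Pfkl, Pgk1 and Pkm) and 0 higher, where 6.61% of 8017 genes were called lower and 9.18% higher. Pgk1, at 6.48 CPM at P8, passed the filter only through the library where it was high, and its call adds nothing to the count. The members' median log2 fold change was -1.09 against 0.02 over all genes. Hk2 and Pfkfb3 were under the filter in that comparison, at 0.235 and 8.07 CPM at E16.5. With a pseudocount of 10 CPM, Pfkl and Pgk1 were short of the call. These are descriptions of 2 libraries, which differ in barcode set, tissue dissected, dissociation and Xist level as well as age.

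E12.5 against E9.5 gave 3 of 10 members lower (Aldoa, Hk2 and Pgk1) and 0 higher, with 7.91% of 7734 genes lower and 16.4% higher. Hk2 and Pgk1 passed the filter only through E9.5, where they were high, so Aldoa is the 1 called member counted on both levels. E16.5 against E12.5 gave 0 of 8 in either direction, with 6.95% of 7875 genes higher and 5.33% lower, and the members' median was 0.60. Pfkl and Ldha both stood at 1.97-fold in that step, just inside the limit. Leaving out cycling barcodes (at least 3 of 10 cell cycle genes detected) moved 3 members, Ldha, Pfkl and Pgk1, past it. Pgk1, at 6.69 CPM at E12.5 in that setting, passed the filter only through E16.5, where it was high, and adds nothing to the count. P8 against E12.5 gave 1 of 8 lower (Aldoa), with 12.1% of 8119 genes lower and 16.4% higher. Ldhb was just inside the limit there, at 0.501 of its E12.5 level, and past it in 6 of 15 alternative settings. Adult against P8 gave 1 of 8 lower (Pfkp), with 8.62% of 8285 genes lower and 11.8% higher.

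Adult against E12.5 gave 1 of 8 higher (Hk1) and 4 lower (Ldha, Ldhb, Pfkp and Pkm), where 27.0% of 8445 genes were higher and 20.6% lower (47.6% in all). A pseudocount of 10 CPM left 2 of these 5 calls, Ldha and Pkm. Comparisons with E9.5 were added after the data were seen, since that library shares its barcode set with P8 and adult. P8 against E9.5 gave 5 of 10 lower and 1 higher (Pfkp, 3.32-fold, 3.10 to 3.55), with 14.8% of 8013 genes lower and 24.9% higher (39.7% in all). Adult against E9.5 gave 5 of 10 lower (Aldoa, Hk2, Ldha, Pgk1 and Pkm) and 0 higher, with 20.1% of 8310 genes lower and 32.2% higher (52.3% in all). In both, Hk2 and Pgk1 passed the filter only through E9.5, where they were high, and the other members called lower were Aldoa, Ldha and Pkm. Pkm was 4.96-fold lower in the adult than at E9.5 (4.85 to 5.08) and Ldha 4.49-fold (4.39 to 4.6). Scaling moved the median of all genes in that comparison from 0.31 to 0.01 with TMM and -0.08 with relative log expression factors. The comparisons share libraries and are not independent of one another.

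**Figure D3:**
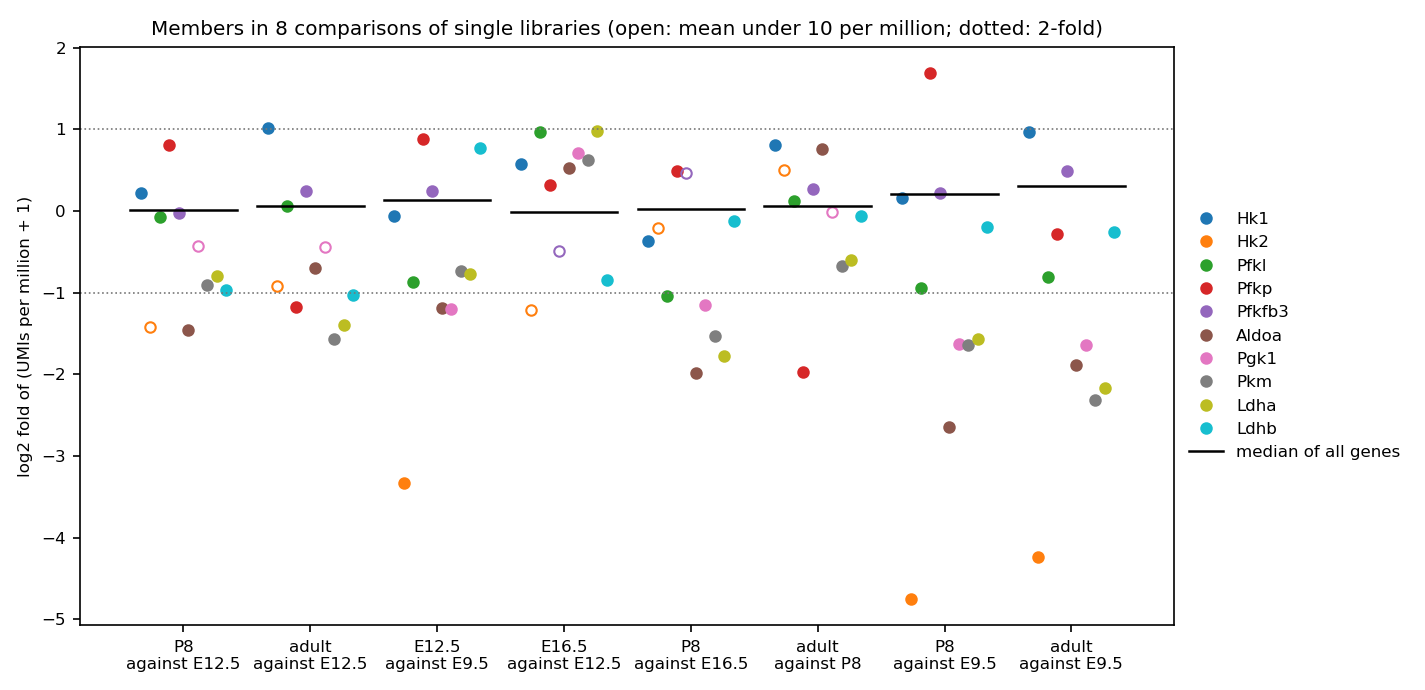
Log2 fold change of each member on the CPM + 1 scale in the 8 comparisons of ages: filled points are counted members, open points have a mean under 10 CPM, dotted lines are 2-fold and black bars the median of all genes. In P8 against E16.5, 5 members lie below the lower limit, and in E16.5 against E12.5 all 8 counted members lie within the limits.

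The share of barcodes with a UMI was read after thinning each barcode to 2600 UMIs, which left out 0 to 404 endothelial barcodes per age. Barcodes with a Pkm UMI made up 98.3%, 88.9%, 96.4%, 76.7% and 61.5% in age order (98.8%, 99.0%, 99.6%, 95.2% and 81.4% unthinned), and with an Ldha UMI 95.1%, 82.2%, 95.2%, 64.9% and 54.6% (97.4%, 97.7%, 99.5%, 90.3% and 74.9% unthinned). The share with a Pfkp UMI was 5.59%, 9.61%, 12.8%, 17.2% and 3.51% (15.7%, 33.9%, 37.1%, 46.2% and 9.89% unthinned). Hk2 was seen in 6.22% of thinned barcodes at E9.5, 0.567% at E12.5 and at most 0.105% later (18%, 2.02% and at most 0.254% unthinned). In other barcodes, thinned in the same way, Hk2 was seen in 8.47% at E9.5 and 5.96% at E12.5 (11.4% and 14.6% unthinned), at median depths of 1769 and 6496.5 UMIs before thinning. Thinning left out 705 of the 1118 other barcodes at E9.5 and 0 of 554 at E12.5, so the E9.5 share rests on the 413 deeper ones. No background share is given for Pkm or Ldha, and the part of free RNA in these shares was not tested.

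Endothelial states within a library were set by fixed marker lists: a barcode was in a state when at least 3 of the list's genes were detected, with more arterial than venous genes for arterial barcodes and the reverse for venous. Tip cells lead a sprouting vessel. Pfkfb3 was higher in tip than in the rest of the gate at all 4 ages with enough tip barcodes: 13.7 against 9.22 CPM at E9.5, 15.3 against 7.47 at E12.5, 12.4 against 5.52 at E16.5 and 16.8 against 8.47 at P8. These are ratios of 1.49 (1.14 to 1.91), 2.05 (1.78 to 2.37), 2.25 (1.81 to 2.80) and 1.98 (1.70 to 2.31). Pfkp showed tip-to-rest ratios of 1.36 (1.14 to 1.60), 1.84 (1.71 to 1.98), 1.58 (1.46 to 1.72) and 1.60 (1.51 to 1.70). Pkm and Aldoa were also above 1 at these 4 ages, by 1.16 to 1.30 and 1.12 to 1.27, whereas Ldhb was at 0.671, 0.720, 0.747 and 1.01.

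Without barcodes carrying markers of another type, the tip ratio of Pfkfb3 was 1.55, 2.09, 2.1 and 2.09, and that of Pfkp 1.48, 1.86, 1.66 and 1.77. Tip barcodes were deeper than the rest, for example 14501 against 8481 median UMIs at E12.5. Among barcodes with more UMIs than the median, the Pfkfb3 ratio was 1.57, 1.94, 2.15 and 2.06. Summed over 6 mural genes, tip barcodes held 27.8 against 60.6 CPM in the rest at E9.5, 65.1 against 55 at E12.5, 202 against 79.2 at E16.5 and 726 against 349 at P8. Mast and megakaryocyte genes were at 28.2 against 735 CPM at E9.5 and 130 against 371 at E12.5. Erythroid genes were lower in tip barcodes at E9.5 (1655 against 3329) and E12.5 (11852 against 18475). They were higher at E16.5 (15449 against 8585) and P8 (18392 against 14750). The part of the erythroid genes in the tip ratios was not tested. At E12.5 1082 of the 2694 tip barcodes had exactly 3 genes of the list and 1329 of the rest had exactly 2, so the state is a range and not a cell type.

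In the adult library, 43 tip and 15 cycling barcodes were under the 50 needed, and arterial and venous barcodes were compared with the rest. Pfkp was at 36.0 CPM in 767 arterial barcodes and 8.67 in the rest, a ratio of 4.15 (3.36 to 5.14). In 671 venous barcodes it was at 7.22 against 24.0 CPM, a ratio of 0.300 (0.222 to 0.400). The rest there includes the 767 arterial barcodes with their 36.0 CPM, so this ratio does not compare venous barcodes with those of neither state. Ldhb was at 32.9 against 11.9 CPM in arterial barcodes, a ratio of 2.76 (2.28 to 3.35), and Pfkfb3 at 18.6 against 11.5, a ratio of 1.62 (1.29 to 2.02). Aldoa was at 1.31 (1.25 to 1.37). Other members were below the rest: Pfkl at 0.737 (0.671 to 0.808), Ldha at 0.832 (0.792 to 0.873), Hk1 at 0.861 (0.768 to 0.964) and Pkm at 0.922 (0.881 to 0.965). The arterial ratio of Pfkp at the earlier ages was 0.683, 1.15, 1.28 and 0.659, all between 0.5 and 2. Pfkp was thus below the rest in arterial barcodes at P8 and above it in the adult, in 1 library each, and the difference was not tested.

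Adult arterial barcodes also held more of the markers of several other types: 2004 against 630 CPM summed over 6 mural genes, 78.3 against 21.1 over 6 microglia and macrophage genes, and 128 against 14.4 over 6 mesenchyme genes. Oligodendrocyte lineage genes were the other way, at 31.1 against 58.7. The sum over 5 neuron genes was 809 against 38.4 CPM. Nearly all of it was Stmn2, at 319 CPM over the whole adult gate, where Tubb3 was at 0.172 and Dcx, Neurod1 and Neurod6 at 0. Without barcodes with at least 2 such markers, the arterial ratio was 4.03 for Pfkp, 2.65 for Ldhb and 1.74 for Pfkfb3. Ldhb itself was lower in these barcodes, at 15.8 CPM against 32.9. Hk2 had 10 of its 12 adult UMIs in arterial barcodes, and 1 was left after that removal.

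Cycling barcodes, with at least 3 of 10 cell cycle genes detected, made up 88.4%, 68.8%, 20.7%, 13.5% and 0.476% of the gate in age order. At E9.5 Pgk1 was 1.80-fold (1.25 to 2.67) and Ldha 1.43-fold (1.37 to 1.49) the level in the rest, whereas Hk1 was at 0.592 (0.489 to 0.723). At P8 Ldha was at 1.21 (1.18 to 1.24), and Pfkfb3 at 0.542 (0.449 to 0.651) and Pfkp at 0.670 (0.627 to 0.717) were lower in cycling barcodes. Cycling barcodes were deeper, at a median of 7683.5 against 3341.5 UMIs at E9.5 and 24243 against 7658 at P8. At E9.5 they held less of 4 mast and megakaryocyte genes (549.6 against 2525 CPM summed), of the erythroid list (2953 against 6392) and of the arterial list (280.3 against 898). The mural (52.6 against 133) and neuron lists (32.3 against 97.0) were also lower there, and the microglia and macrophage list was higher (31.3 against 6.75). At P8 they held less of the tip list (241 against 598), the arterial list (241 against 564), the endothelial list outside the gate (5610 against 8893) and the erythroid list (6947 against 20711). Without barcodes with at least 2 markers of another type (erythroid list not used), the E9.5 ratio was 1.92 for Pgk1, 1.44 for Ldha and 0.592 for Hk1, and the P8 ratio 1.24 for Ldha, 0.464 for Pfkfb3 and 0.691 for Pfkp. The part of the arterial, tip and erythroid genes in these ratios was not tested. With all barcodes of the gate, the ratio of cycling barcodes to the rest was within 2-fold for every member at the 4 ages computed. Without cycling barcodes Aldoa at E12.5 was 0.87 below E9.5 on the log2 scale, short of the call, while the calls of Aldoa, Ldha and Pkm at P8 against E16.5 were kept.

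**Figure D4:**
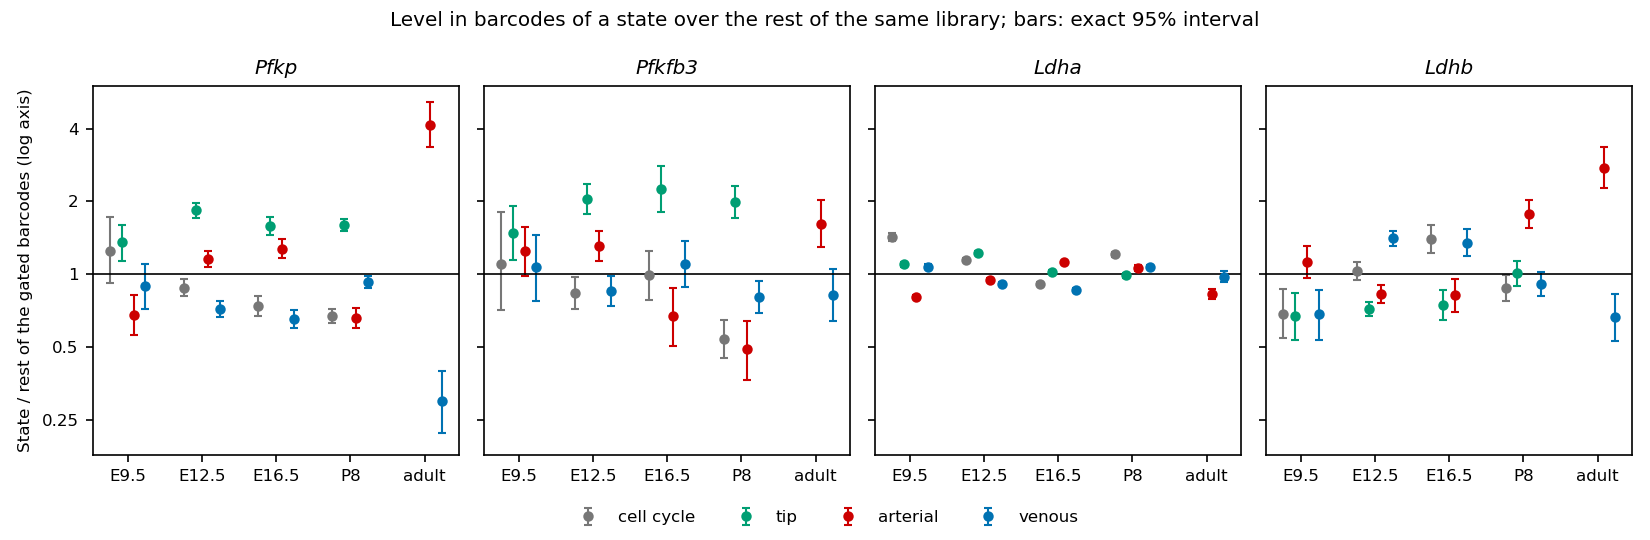
Ratio of the level of Pfkp, Pfkfb3, Ldha and Ldhb in a state to the rest of the endothelial barcodes of the same library (log axis), by age, with 95% conditional intervals. Pfkfb3 lies at 1.49 to 2.25 in tip barcodes, and Pfkp lies at 4.15 in adult arterial barcodes.

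The other genes of the pathway were read from a list of 25. At P8 against E12.5, 1 of the 8 counted was called higher and 1 lower, where 16.4% and 12.1% of all genes were, and in the adult 2 were higher and 3 lower, where 27.0% and 20.6% were. With 8 genes these counts are near the shares over all genes. Slc16a1, at 6.86 CPM at E12.5, passed the filter only through P8 and the adult, where it was high. The list's median log2 fold change was -0.48 at P8 and -0.63 in the adult, against 0.02 and 0.07 over all genes. Gapdh, which acts further down the pathway than aldolase, was at 1936, 679, 574, 202 and 277 CPM in age order, and Pgam1, a phosphoglycerate mutase, at 1054, 341, 303, 195 and 118. Bpgm, which makes bisphosphoglycerate, was at 23.9, 71.2, 116, 115 and 31.4. The transporters differed among themselves. Slc2a1, the glucose transporter of the blood-brain barrier, was at 271, 1174, 1224, 830 and 5220 CPM, and Slc2a3, a second glucose transporter, at 29.8, 4.68, 2.17, 0.877 and 1.38. Slc16a1, which carries lactate and other monocarboxylates, was at 18.2, 6.86, 89.2, 1686 and 336, highest at P8, and Slc16a3, the lactate exporter of glycolytic cells, was at 130, 16, 4.94, 0.215 and 1.68.

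Of the list of hypoxia-inducible factor genes and targets, 4 of the 15 counted were called higher at P8 against E12.5 and 1 lower, and in the adult 6 were higher and 1 lower. The shares over all genes were 16.4% higher and 12.1% lower at P8, and 27.0% higher and 20.6% lower in the adult. The list's median log2 fold change was 0.05 at P8 and 0.66 in the adult. Epas1, which encodes HIF-2 alpha, was at 30.9, 119, 269, 431 and 1481 CPM in age order. Ndrg1, a stress-response gene, was at 2.78, 15.0, 45.4, 17.2 and 860. Egln1, an oxygen sensor that marks HIF for decay, was at 57.8, 21.1, 34.2, 169 and 142, and Ankrd37 at 23.4, 62.1, 426, 263 and 55. Epas1 was highest in the adult library, where Ldha and Pkm were lowest, and their relation was not tested. Hif1a was at 78.0, 63.7, 75.9, 192 and 101 CPM.

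Of the list of pyruvate oxidation and respiratory chain genes, 7 of the 24 counted were called lower and 1 higher at P8 against E12.5, where 12.1% and 16.4% of all genes were. In the adult 12 of 25 were lower and 2 higher, where 20.6% and 27.0% of all genes were. Pdk3, at 7.74 CPM in the adult, and Pdp1, at 6.74 CPM at E12.5, passed the filter there only through the library where they were high. The list's median log2 fold change was -0.69 at P8 and -0.83 in the adult, and no test was made of the list. Uqcrc1, of respiratory complex III, was at 396 CPM at E12.5 and 113 in the adult, and Sdhb, of succinate dehydrogenase, at 266 and 82.1. Idh3a and Fh1, enzymes of the citric acid cycle, were at 86.8 and 24.4 and at 100 and 28.4 CPM. Mpc1, a subunit of the mitochondrial pyruvate carrier, was higher at P8, with 250 against 92.0 CPM, and Ogdh was higher in the adult, with 90.0 against 42.6. Of 7 pentose phosphate genes 3 were lower in the adult, Pgd, Pgls and Tkt, by 4.05-fold, 2.75-fold and 2.40-fold. All 10 cell cycle genes were lower in the adult and 8 of 10 stress genes higher. Except for Pcna, at 13.4 CPM in the adult, the cell cycle genes passed the filter only through E12.5, where they were high. Fosb, Hspa1a and Hspa1b, at 4.45, 7.22 and 0.423 CPM at E12.5, passed it only through the adult, where they were high. Fos was at 118 CPM at E12.5 and 892 in the adult, and Hspa1a at 7.22 and 785. Their part in the levels of the members was not tested.

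For each member, the gene with the closest course over the 5 libraries was the one with the smallest distance in centred log2(CPM + 10), among 3319 genes with a mean of at least 50 CPM. Pkm and Ldha were each other's closest gene, at a distance of 0.28. Aldoa was closest to Eno1, an enolase further down the pathway, which was at 430, 189, 429, 96.5 and 130 CPM, at a distance of 0.59. Pfkp was closest to Col4a2, a basement membrane collagen, which was at 318, 449, 563, 866 and 265 CPM, at 0.20. Pfkl was closest to Actb (0.33), Hk1 to BC005624 (0.15), Hk2 to Eif5 (0.33), Pfkfb3 to Midn (0.11), Pgk1 to Trappc2l (0.29) and Ldhb to Ilk (0.12). The 10 CPM added before the log flattens the course of low genes such as Hk2, Pgk1 and Pfkfb3. Hk2 ranged from 0.0662 to 27.7 CPM, whereas Eif5 was at 680, 284, 216, 225 and 226, so their courses differ in size. The points are 5 libraries that differ in depth and dissociation, and a low distance is a description of them.

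In chromatin, the promoters of the members were open at every age. A promoter counted as open in a library when a deposited peak lay within 500 bp of a RefSeq start. All 10 members had one in each of the 3 brain endothelial libraries at E12, the 3 at P6 and the 2 of the adult, where 64.3%, 51.2% and 55.1% of 17492 genes did. Across organs, 8 members had a promoter peak in all 37 endothelial libraries and Hk2 and Ldhb in 36, and 7 members in all 29 input libraries. Genes with a peak in every library made up 41.3% for endothelial and 38.9% for input. The Hk2 promoter was thus open in brain endothelium at all 3 ages, also near the ages at which its RNA was hardly detected. It was open in whole brain as well, in 1 of 1 input libraries at E12, 3 of 3 at P6 and 1 of 1 in the adult, and in 28 of 29 inputs over all organs.

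The starts of a gene differed, again counted by a peak within 500 bp of the start. For Hk1, the first RefSeq start (chr10:62379908) had a peak in 0 of 37 endothelial and 0 of 29 input libraries, and the second (chr10:62340421) in all of them. Aldoa had its first start (chr7:126800447) within 500 bp of a peak in 13 of 37 endothelial and 11 of 29 input libraries, and its other 2 starts in all of them. For Pkm the first start (chr9:59656576) had a peak in 37 endothelial and 29 input libraries and the second (chr9:59657227) in 22 and 15. The Ldha counts were 37 endothelial and 29 input (chr7:46845804) and 30 and 24 (chr7:46847082). Starts closer than the window share peaks.

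Regions in and around the members were then compared between endothelial and input libraries. Peaks of all 66 libraries were merged into 514158 regions, of which 212 lay in a member or within 10 kb of it. An exact permutation test compared the number of libraries with a peak between endothelial and input libraries within organ and age, 2-sided, with Benjamini-Hochberg adjustment over the 207792 regions with a peak in at least 5 libraries. This test was added after the data were seen. Of 112 member regions tested, 12 had a peak in more endothelial libraries and 19 in fewer, where 10.9% and 25.0% of all regions did. The members together were thus near the share of all regions in the first direction and below it in the second, and the genes were not tested against each other. Input lists were longer at each age (medians of 141866, 93929.5 and 48589.5 peaks at E12, P6 and adult, against 101233, 69067.5 and 36755.5), and list length cannot be told apart from accessibility here.

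Of 20 Pfkfb3 regions tested, 5 had peaks in more endothelial libraries and 2 in fewer, beside the 10.9% and 25.0% of all regions. Leaving out 1 library ended 2 of these 7 calls, with the largest p without brain input E12 replicate 2 for one and liver endothelial P6 replicate 1 for the other. Its region at chr2:11515455-11516592, in the gene body, had a peak in 23 of 37 endothelial and 2 of 29 input libraries (adjusted exact permutation p = 0.000383), with 7 of 11 at E12, 6 of 14 at P6 and 10 of 12 in the adult. In brain endothelium it had a peak in 2 of 3, 0 of 3 and 2 of 2 libraries. A second Pfkfb3 region, chr2:11488430-11489072, had a peak in 18 of 37 endothelial libraries, 8 of 11 at E12, 10 of 14 at P6 and 0 of 12 in the adult, and in 0 of 29 inputs (adjusted exact permutation p = 0.000121). When every list was cut to its top 19464 peaks, the length of the shortest, the first was still called (p = 0.033) and the second was not (p = 0.111), both adjusted exact permutation values.

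Pfkp had a region in its gene body, chr13:6582834-6584040, with a peak in 23 of 37 endothelial and 5 of 29 input libraries (adjusted exact permutation p = 0.000944). It had a peak in 11 of 11 endothelial libraries at E12, 12 of 14 at P6 and 0 of 12 in the adult, and in brain in 3 of 3, 3 of 3 and 0 of 2. The adult and P6 endothelial libraries differed there (adjusted exact permutation p = 0.0107 within organ), though not with equal numbers of top peaks (5 of 14 against 0 of 12, p = 0.467). Pfkp RNA was also lower in the adult brain library than at P8. The 2 measures come from different mice and 1 RNA library per age, and their relation was not tested.

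Hk1 had a region at chr10:62287481-62288390, in its gene body, with a peak in 32 of 37 endothelial and 13 of 29 input libraries (adjusted exact permutation p = 0.00579). In Pkm the region chr9:59660436-59660889, in the gene body, had a peak in 24 of 37 and 5 of 29 libraries (adjusted exact permutation p = 0.000541), which was lost with equal numbers of top peaks (p = 0.77). Pgk1 had a region at chrX:106203153-106203724 with a peak in 11 of 11 E12 endothelial libraries and in no other library, input or endothelial. Its adjusted exact permutation p was 0.033, and leaving out the trunk input library of E12 lost the call.

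Of 15 Hk2 regions tested, 8 were called in fewer endothelial libraries and 0 in more, beside the 25.0% and 10.9% of all regions and with longer input lists. Leaving out 1 library ended 3 of the 8, with the largest p without heart input adult replicate 1 for 2 of them and lung endothelial P6 replicate 2 for the other. With equal numbers of top peaks, 1 call of fewer endothelial libraries was left over all members. The region chr6:82722850-82723850, outside the gene, had a peak in 10 of 37 endothelial libraries, all of them at E12 (10 of 11), and in 14 of 29 inputs (adjusted exact permutation p = 0.00205). A gene body region, chr6:82753052-82754411, had a peak in 1 of 37 endothelial and 11 of 29 input libraries. Of 4 Aldoa regions tested, 0 were called. The call of the Pfkp, Pfkfb3 (chr2:11515455), Hk1 (chr10:62287481) and Hk2 (chr6:82722850) regions was made with all peaks, with peaks at a −log10 q of at least 5 and with equal numbers of top peaks, the only 4 of the 31 for which this held.

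Between adult and P6 endothelial libraries, 5 of 67 member regions tested had a peak in fewer adult libraries and 0 in more, where 13.1% of 83950 regions were fewer and 0.0238% more. They were 1 each in Hk1, Pfkp and Pfkfb3 and 2 in Pkm, at chr9:59659680-59660094 (4 of 12 against 14 of 14) and the region above. With equal numbers of top peaks the exact permutation test called 0 of 28692 regions in either direction, with 3099 at an unadjusted p under 0.05, of which 4 were at members. The shorter adult lists thus cannot be told apart from a loss of open regions.

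**Figure D5:**
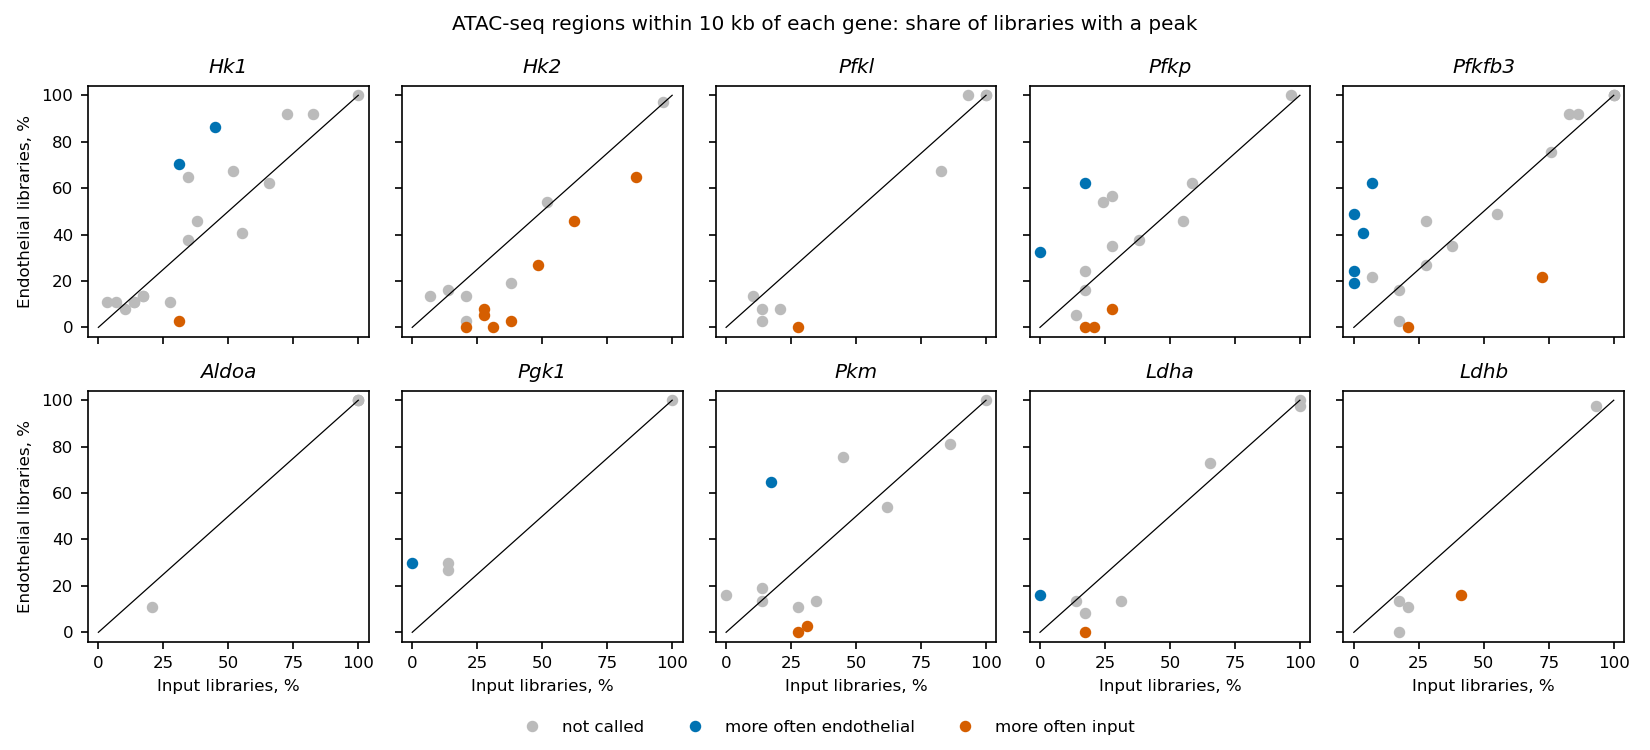
Share of the 29 input libraries (x axis, percent) and of the 37 endothelial libraries (y axis, percent) with a peak in each tested region in or within 10 kb of each member, coloured by the call of the exact permutation test, with the line of equal shares. Pfkfb3 has 5 regions called above the line, and Hk2 has 8 called below it and 0 above.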

How the data were processed

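Single-cell libraries were deposited as matrices of UMI counts per gene and barcode, and Cell Ranger 4.0.0 is named in the file headers. The gene table deposited for the other ages was used for the rows of the E16.5 matrix: over genes, summed E16.5 counts correlated with E12.5 at a Spearman rho of 0.958 in this order and 0.350 with rows shifted by 1. Counts were summed over the gated barcodes of each library and scaled to the UMI total of the same barcodes (45700000, 80400000, 42500000, 60400000 and 23300000 from E9.5 to adult) as CPM. The mitochondrial limit removed 42.4%, 0.746%, 0.200%, 26.2% and 32.1% of barcodes. Doublets were not called. Intervals are exact Poisson, conditional binomial or Clopper-Pearson at 95%. A count of 3 UMIs, the floor, equals 0.0373 to 0.129 CPM.

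Peaks were called per library by the authors with MACS2 2.1.2 on mm10, per the file headers and the submitters' processing notes (q 0.05, broad cutoff 0.1, shift -100, extension 200). Each peak's pileup signal, fold enrichment ratio and −log10 p and q values are as deposited by the authors, and the −log10 q ranked and filtered peaks within a list. Input and endothelial lists differ in length, from 19464 to 144197 peaks. The names of the aligned files were sorted into 4 kinds by their endings, and what the endings stand for is not stated. A permutation within these kinds is given in the closing section.

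All 10 members are named. From the other lists, at most 4 genes per direction were named, with a 2-fold change of E12.5 against P8 or adult and a mean of at least 50 CPM, along with the closest gene of each member. Hif1a, the Pfkfb genes, Slc2a3 and Slc16a3 were named after their values were seen. The members and lists were chosen with earlier results of these data known. Alternatives covered the gate, filters, scaling (TMM and relative log expression in edgeR 4.0.16, R 4.3.3), pseudocount, cell make-up, promoter window, peak threshold and replicates. Python 3.11.15, pandas 2.3.3 and scipy 1.17.1 were used. The nuclear RNA libraries were not used here, since no table used here pairs their transcripts with genes. The labels name separate samples and not separate animals for the ATAC-seq replicates, so their p-values measure the spread between samples.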

Additional observations from a re-analysis of the deposited data

How the results depend on the processing

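The count of members at least 2-fold apart at P8 against E12.5 was 1, and 2 with at least 4 gate genes, mitochondrial UMIs up to 5%, relative log expression factors, totals without haemoglobin, mitochondrial and ribosomal protein genes, equal weight per barcode, or without barcodes of other-type markers (with or without the erythroid list). Adult against E12.5 went from 5 to 2, and P8 against E16.5 from 5 to 3, with a pseudocount of 10 CPM. E12.5 against E9.5 went from 3 to 5 without other-type markers, which left 267 barcodes at E9.5 and 141 at E12.5. E16.5 against E12.5 went from 0 to 1 with equal weight per barcode, 1 without other-type markers, 2 when the erythroid list was not used, and 3 without cycling barcodes. Pgk1 is 1 of those 3 and passed the filter only through E16.5. The removal without the erythroid list, the mitochondrial limit of 20%, the removal of barcodes with Lyve1 or Stab2, the comparisons of P8 and adult with E9.5 and the region tests were chosen after seeing the data. The cause of these shifts was not tested. At P8 against E16.5 the calls of Aldoa (-2.06 to -1.92 on the log2 scale), Ldha (-1.92 to -1.73) and Pkm (-1.63 to -1.5) held in all 15 alternatives, as did Pfkp in adult against P8 (-2.41 to -1.48) and Hk2 in E12.5 against E9.5 (-4.76 to -1.67). No fold of a called member turned its sign. With equal numbers of top peaks, 8 members had a promoter peak in every E12 brain endothelial library, where 39.1% of all genes did.

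Regions called between endothelial and input libraries numbered 31, and 15 at a −log10 q of at least 5, 8 with equal numbers of top peaks, and 31 within the endings of the aligned files' names. Adult against P6 gave 5, and 0 with equal numbers of top peaks. With the replicate number as a block the counts were 5 and 0. Whether the numbers pair the libraries was not settled. Deviations of same-numbered libraries correlated at -0.163 to 0.175 (median 0.028) over 20 pairs, 4 of them over 0.1. Those of different numbers correlated at -0.171 to 0.163 (median -0.023). In the smallest groups the values for same and different numbers mirror each other by construction, so these ranges cannot decide it. Leaving out 1 library in turn ended 11 calls by their unadjusted p, at Pfkp (chr13:6628968 and chr13:6636626), Pfkfb3 (chr2:11491443 and chr2:11564020), Hk2 (chr6:82735340, chr6:82740030 and chr6:82760707), Ldhb, Ldha and Pgk1. The edgeR test planned for nuclear RNA was not run. Hk2 rests on 4 to 12 UMIs per library from E16.5 on.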
